A study of Mus musculus with 12 samples.

Results

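Rsad2, which encodes the antiviral protein viperin, and Cmpk2, its neighbour on mouse chromosome 12, are described here in 12 RNA sequencing libraries of L929 cells, an established mouse fibroblast line. The 2 genes were chosen by name from the 54532 genes listed in each count file, and both were among the 16840 genes that passed the filter on low counts. The labels give 6 groups of 2 libraries each: mock, described as without treatment, HT-DNA transfection, hpRNA transfection, cGAMP stimulation, G3-YSD transfection and HSV transfection. The label names are kept unexpanded here. cGAMP itself is a cyclic dinucleotide that the DNA sensor cGAS produces. RNA was prepared 6 hours after transfection, and polyA+ RNA was read in pairs of 150 bases. The final digit of each title was read as a replicate number, although for HSV it could also name a virus type, in which case HSV would be 2 groups of 1 library. All groups share 1 cell line and growth medium, and no genotype or further agent is given. The labels state that transfections were done in duplicate but do not say whether the libraries came from separate cultures, so p-values measure the spread between these libraries, which may be technical.

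Viperin is a radical SAM enzyme of the endoplasmic reticulum and lipid droplets that converts CTP into a chain-terminating nucleotide analogue. Cmpk2 is a mitochondrial nucleoside monophosphate kinase that phosphorylates pyrimidine monophosphates. Both are known as interferon-stimulated genes, induced through the transcription factors IRF3 and ISGF3 (which includes STAT2 and IRF9) after nucleic acid sensing, and they lie next to each other in many vertebrate genomes.

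In mm10 with GENCODE M21 annotation, Rsad2 (ENSMUSG00000020641) spans chromosome 12, 26442746 to 26456452, on the minus strand, with 8 exonic blocks. Cmpk2 (ENSMUSG00000020638) spans 26469204 to 26479837 on the plus strand, with 5 exonic blocks. The genes are arranged head to head, with start sites 12.8 kb apart and 0 annotated genes between them. No annotated gene overlaps either, so sharing of reads with an overlapping transcript is not at issue for this pair. Of 12 further genes annotated within 500 kb, 0 passed the filter. Rnf144a, the 1 protein-coding gene among them, had 0 to 10 counts per library, and the pseudogenes on either side, Gm47799 and Gm46344, had 0 to 1. The Rnf144a counts were 7 and 10 in G3-YSD 1 and G3-YSD 2, 5 in each HSV library and 0 to 1 in each library of the other labels. Rsad2 and Cmpk2 were therefore the genes with appreciable counts in this window.

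**Figure D1:**
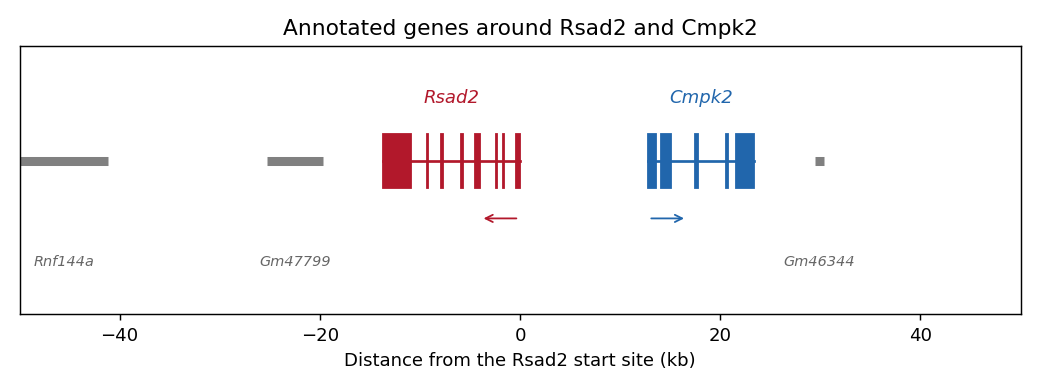
Annotated genes around the pair, drawn to scale as distance in kb from the Rsad2 start site. Boxes are exons of Rsad2 (8 blocks) and Cmpk2 (5 blocks), arrows give the direction of transcription and grey bars are other annotated genes (miRNA genes are not drawn). The start sites lie 12.8 kb apart with 0 annotated genes between them.

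The 250 bases before the RefSeq start of each gene (build GRCm38.p6, both 5′ to 3′ along the gene) are shown because the pair is interferon-inducible and the levels below differ between its members. The Rsad2 stretch is chr12:26456453-26456702 on the minus strand and the Cmpk2 stretch is chr12:26468965-26469214 on the plus strand. Capitals mark matches, on either strand, to the core bound by interferon regulatory factors (AANNGAAA) or to TATAA.
Rsad2: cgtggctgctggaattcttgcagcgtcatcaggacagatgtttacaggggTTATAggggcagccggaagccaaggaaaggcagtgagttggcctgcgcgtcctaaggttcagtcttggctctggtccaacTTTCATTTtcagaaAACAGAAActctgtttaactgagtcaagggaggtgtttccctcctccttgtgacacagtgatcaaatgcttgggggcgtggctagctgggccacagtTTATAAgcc
Cmpk2: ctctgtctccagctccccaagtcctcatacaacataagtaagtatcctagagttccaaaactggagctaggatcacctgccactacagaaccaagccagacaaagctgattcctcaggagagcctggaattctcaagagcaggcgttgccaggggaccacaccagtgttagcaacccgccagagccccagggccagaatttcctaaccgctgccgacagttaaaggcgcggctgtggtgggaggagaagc
Rsad2 held 2 matches to AANNGAAA, on the reverse strand at bases -120 to -113 from the start and on the forward strand at -106 to -99. Its TATAA matches lay at -200 to -196, at -9 to -5 and at -8 to -4, the last on the forward strand and overlapping the one before. TTCNNNGAA, the core of the gamma-activated site, was not found. In the Cmpk2 stretch none of these 3 motifs was found, which says only that these letters are not in this window. Of all 32851 promoter windows of this length, 21.3% hold AANNGAAA, 22.8% TATAA and 7.02% TTCNNNGAA.

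Total counts per library ranged from 12650790 to 18912400. Each library was closest to a library of another label with the same number, at noise ratios of 1.41 to 2.03, where 1 is counting noise alone. The ratio is a median over genes with at least 100 counts summed over the 2 libraries, scaled by total counts. Libraries of the same label differed more, with ratios of 3.52 (HT-DNA) to 82.6 (G3-YSD). The labels and the counts thus disagree about which libraries belong together, and no library was moved. The G3-YSD and HSV libraries also stood apart from all others, at ratios of 43.7 to 68.3, beside 1.55 to 13.05 among mock, HT-DNA, hpRNA and cGAMP. They had 23909 to 26496 genes with a count, and the libraries of those labels 21635 to 22550. The source of this distance was not tested. Of 12 fibroblast markers 11 passed the filter, among them Vim at 1822 to 2758 CPM and Col1a1 at 147 to 390 CPM, whereas Thy1 had at most 8 counts. Markers of leukocytes, epithelium and endothelium (8 of 14 passed the filter) summed to 75.1 to 106 CPM, mostly Cd68 at 57.5 to 91.3 CPM. The T-cell marker Cd3e and the epithelial marker Krt18 were at 0 in 9 of 12 libraries. Other members of the list had counts in every library. Among these were the epithelial Krt8 (3 to 48 counts) and the leukocyte markers Ptprc (6 to 20), Adgre1 (5 to 12), Csf1r (5 to 30) and Lyz2 (186 to 223). The summed fibroblast markers were 4847 to 5188 CPM in mock, HT-DNA, hpRNA and cGAMP, but 4216 and 6985 CPM in G3-YSD 1 and G3-YSD 2 and 3932 and 6796 CPM in HSV 1 and HSV 2.

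Rsad2 varied 1026-fold between the lowest and the highest library. Levels are CPM, a gene's counts scaled to a fixed library size by TMM, which discounts a few very high genes. The mock libraries held 3.41 CPM (library 1) and 744 CPM (library 2) of Rsad2. The hpRNA libraries were close to these, with 3.65 and 667 CPM in the same order. HT-DNA 1 and HT-DNA 2 had 182 and 1126 CPM, and cGAMP 1 and cGAMP 2 had 214 and 1197 CPM. In G3-YSD the order of the numbers was the other way round, with 3456 CPM in library 1 and 74.0 CPM in library 2, and HSV likewise had 3500 and 64.2 CPM. The libraries of every label except HT-DNA and cGAMP therefore differed 46.7-fold or more, and the ranges of all 6 labels overlapped. Per kb of exon Rsad2 was the 32nd most abundant of the tested genes in G3-YSD 1 and the 34th in HSV 1, against position 11920 in mock 1. In such bulk RNA, fewer responding cells and less RNA per cell cannot be told apart.

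Cmpk2 was far lower and, outside 2 libraries, varied much less than Rsad2. Mock 1 held 0.455 CPM (8 counts) of it, and mock 2 held 2.56 CPM (42 counts). hpRNA 1 and hpRNA 2 had 0.514 and 2.74 CPM, HT-DNA 1 and HT-DNA 2 had 0.885 and 2.21 CPM, and cGAMP 1 and cGAMP 2 had 1.03 and 2.53 CPM. G3-YSD 2 and HSV 2 had 1.31 and 1.32 CPM. G3-YSD 1 and HSV 1 stood apart at 52.0 and 51.4 CPM, with 880 and 839 counts. Over the 10 other libraries Cmpk2 spanned 6.03-fold, from 0.455 to 2.74 CPM, while Rsad2 spanned 351-fold, from 3.41 to 1197 CPM. Per kb of exon, Cmpk2 ranged from 0.109 to 12.5 CPM, with a median of 0.424. Its cytosolic relative Cmpk1, the general UMP-CMP kinase, ranged from 24.4 to 46.9 CPM per kb, and the thymidylate kinase Dtymk from 38.0 to 42.3. Cmpk2 thus lay below the lowest library of both kinases even where it was highest. The mitochondrial adenylate kinase Ak4 was lower, at 3.64 to 18.9 CPM per kb. Its 8.73 and 8.62 CPM per kb in G3-YSD 1 and HSV 1 were below the 12.5 and 12.4 of Cmpk2 there.

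**Figure D2:**
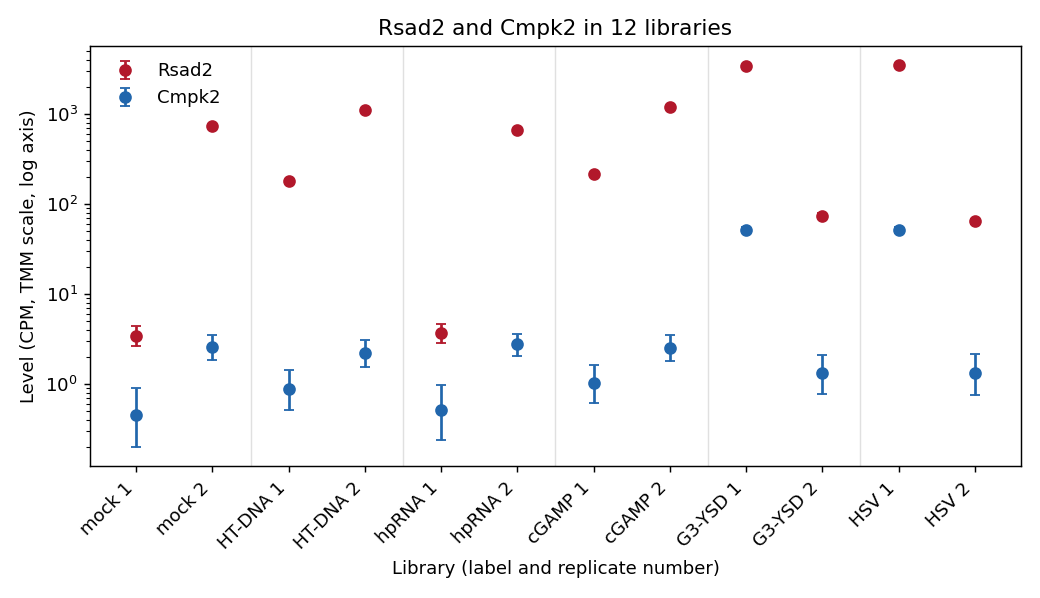
Level of Rsad2 (red) and Cmpk2 (blue) in each of the 12 libraries, in CPM on the TMM scale (log axis). Bars are exact Poisson 95% intervals, which cover counting error only and are smaller than the points for high counts. Cmpk2 exceeds 2.74 CPM in G3-YSD 1 and HSV 1 alone, while Rsad2 reaches 744 CPM in mock 2 and 1197 CPM in cGAMP 2.

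Ordered by the level of Rsad2, the libraries fell into same-numbered neighbours from different labels. Mock 1 and hpRNA 1 came lowest and differed 1.07-fold, within overlapping Poisson 95% intervals. HSV 2 followed at 17.6 times hpRNA 1, then G3-YSD 2, HT-DNA 1, cGAMP 1, hpRNA 2, mock 2, HT-DNA 2 and cGAMP 2. G3-YSD 1 lay 2.89-fold above cGAMP 2, and HSV 1 differed from it 1.01-fold, again within overlapping intervals. The other neighbours differed by more than counting error, by 1.06-fold to 17.6-fold, which compares single libraries and not conditions. For Cmpk2 the only neighbouring libraries beyond counting error were hpRNA 2 and HSV 1, 18.7-fold apart. By mean log2 CPM, hpRNA and mock were the lowest labels for Rsad2, at 5.62 ± 5.31 and 5.65 ± 5.49 (SD, n = 2 each). HT-DNA at 8.82 ± 1.86, HSV at 8.89 ± 4.08 and G3-YSD and cGAMP at 8.98 ± 3.92 and 8.98 ± 1.75 (SD, n = 2 each) followed. For Cmpk2 the order ran from mock at 0.11 ± 1.76 over hpRNA, HT-DNA and cGAMP to G3-YSD at 3.04 ± 3.76 and HSV at 3.04 ± 3.74 (SD, n = 2 each). No neighbouring labels in either order differed by more than the larger of their SDs.

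The count ratio of Rsad2 to Cmpk2 does not depend on library size, and it ranged from 7.11 to 509. Mock 1 had a ratio of 7.50 (exact binomial 95% interval 3.57 to 18.2) and in hpRNA 1 7.11 (3.52 to 16.3). In mock 2 it was 290 (215 to 403) and in hpRNA 2 243 (184 to 329), which is 38.7 and 34.2 times the ratio in the other library of the same label. HT-DNA 1 and cGAMP 1 had ratios of 205 (128 to 353) and 209 (133 to 347). HT-DNA 2 and cGAMP 2 had the highest, 509 (368 to 727) and 473 (346 to 666). The 4 G3-YSD and HSV libraries were alike, at 66.5 (62.2 to 71.2) in G3-YSD 1, 56.6 (35.2 to 97.5) in G3-YSD 2, 68.0 (63.6 to 72.9) in HSV 1 and 48.6 (29.7 to 85.4) in HSV 2. Their intervals overlapped although Rsad2 itself differed 46.7-fold between the G3-YSD libraries and 54.5-fold between the HSV libraries. The same intervals lay below those of the 4 HT-DNA and cGAMP libraries and above those of mock 1 and hpRNA 1. Exon length hardly alters these values, since Rsad2 has 4335 and Cmpk2 4163 exonic bases, and per kb the ratios ran from 6.83 to 489.

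**Figure D3:**
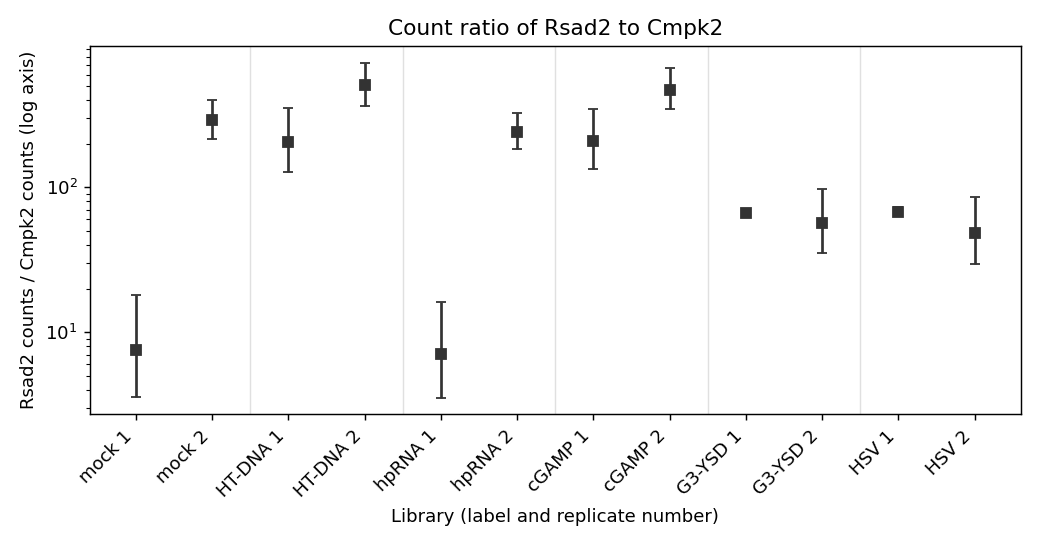
Rsad2 counts divided by Cmpk2 counts in each library (log axis), with exact binomial 95% intervals that cover counting error only. The G3-YSD and HSV libraries sit between 48.6 and 68.0, the HT-DNA and cGAMP libraries between 205 and 509, and mock and hpRNA are split between about 7 and over 240.

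Across labels the ratio was not distinguishable from the spread within labels. An exact permutation test over all 10395 ways of pairing the 12 libraries, on the ratio of between-label to within-label variance of the log2 ratio, gave p = 0.588. Mean log2 ratios were 5.54 ± 3.73 in mock and 5.38 ± 3.60 in hpRNA, 8.34 ± 0.93 in HT-DNA, 8.30 ± 0.84 in cGAMP, 5.94 ± 0.16 in G3-YSD and 5.85 ± 0.34 in HSV (SD, n = 2 each). For a single stimulus against mock, 2 libraries against 2 cannot reach an exact permutation p below 0.333.

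Whether each stimulus changed the pair was asked against mock, in an edgeR quasi-likelihood fit of all 12 libraries with Benjamini-Hochberg adjustment over all tested genes. Neither gene passed an adjusted p of 0.05 in any of 6 comparisons. The background for these counts is given as the share of all 16840 genes called. In HT-DNA against mock, the Rsad2 log2 fold change was 0.81 with a standard error of 2.70 (95% interval -5.38 to 6.99, adjusted p = 1) and that of Cmpk2 was 0.03 with a standard error of 1.89. Beside this, 0% of genes were called, 0.368% (62 genes) had an unadjusted p under 0.05 and DESeq2 called 1 gene. In cGAMP against mock Rsad2 had 0.92 (-5.28 to 7.12) and Cmpk2 0.23 (-4.08 to 4.55), with 0% of genes called, 0.588% (99) at an unadjusted p under 0.05 and 0 called by DESeq2. In hpRNA against mock the values were -0.16 (-6.31 to 5.99) and 0.12 (-4.19 to 4.43), with 0% called, 0.344% (58) at an unadjusted p under 0.05 and 1 called by DESeq2. HT-DNA against hpRNA, DNA set against RNA, gave 0.96 for Rsad2 and -0.08 for Cmpk2, with 0% called, 0.457% (77) at an unadjusted p under 0.05 and 0 called by DESeq2. The intervals are wide on both sides of 0, so in this fit large changes in either direction could have gone uncalled. All 6 labels share 1 estimate of spread per gene. For Cmpk2, same-label libraries differed 39.8-fold in G3-YSD and 38.9-fold in HSV, but 2.46-fold to 5.63-fold in the other labels. Without the G3-YSD and HSV libraries, the standard error of Cmpk2 in HT-DNA against mock was 1.01. In these comparisons, fewer genes had an unadjusted p under 0.05 than that threshold gives when no label differs. The within-label spread was unusual, since 98.1% of tested genes had a lower dispersion than Rsad2 and 94.99% a lower one than Cmpk2.

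Compared library by library at the same number, the HT-DNA and cGAMP values for Rsad2 were above mock each time, by very unequal factors. HT-DNA 1 was 53.3-fold and cGAMP 1 62.8-fold above mock 1, while HT-DNA 2 and cGAMP 2 were 1.51-fold and 1.61-fold above mock 2. hpRNA 1 and hpRNA 2 stood at 1.07 and 0.896 times the mock library of their number. Cmpk2 in HT-DNA and cGAMP was 1.95 and 2.26 times mock 1 in library 1, and 0.863 and 0.987 times mock 2 in library 2. What libraries of equal number have in common is not stated, so these are values of single libraries without a test. Without mock 1 the Rsad2 log2 fold change fell to -0.18 for HT-DNA and -0.08 for cGAMP, and without mock 2 it was 7.60 and 7.70, so the mock library used sets the value. For Cmpk2 the values were -0.73 and -0.54 without mock 1, and 1.76 and 1.95 without mock 2. Leaving out HT-DNA 2 or cGAMP 2 also turned both genes negative. For hpRNA against mock, Rsad2 was at 6.63 without mock 2 and at -6.68 without hpRNA 2. HT-DNA against hpRNA gave -0.89 without HT-DNA 2 and 7.50 without hpRNA 2 for the same gene.

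In this fit G3-YSD and HSV gave the largest estimates, and the value of Cmpk2 was above that of Rsad2. Mean log2 CPM gave another picture, with Rsad2 at 8.98 in both cGAMP and G3-YSD, 8.89 in HSV and 8.82 in HT-DNA. From mock to G3-YSD it went from 5.65 to 8.98 for Rsad2 and from 0.11 to 3.04 for Cmpk2, the smaller step. For G3-YSD against mock the log2 fold change of Cmpk2 was 4.15 with a standard error of 1.98 (95% interval -0.41 to 8.70, edgeR adjusted p = 0.24). That of Rsad2 was 2.24 with a standard error of 2.81 (-4.19 to 8.67, adjusted p = 0.642). For HSV against mock, Cmpk2 had 4.13 with a standard error of 1.98 (adjusted p = 0.239 by edgeR) and Rsad2 2.25 with 2.81 (adjusted p = 0.638). In G3-YSD 5.16% of all genes were called (1.79% higher, 3.37% lower) and 24.2% had an unadjusted p under 0.05. In HSV 5.2% were called (1.73% higher, 3.47% lower) and 24.3% had an unadjusted p under 0.05. Over all genes the log2 fold change had a median of 0.11 in G3-YSD and 0.10 in HSV. Cmpk2 lay above 95.1% of genes in both, and Rsad2 above 88.6% and 88.7%. Cmpk2 passed under DESeq2, at adjusted p = 0.0469 for G3-YSD and adjusted p = 0.0491 for HSV, where 6.4% and 6.03% of genes were called higher. It also passed in edgeR without the filter on low counts (adjusted p = 0.0124 and adjusted p = 0.0126), where 3.43% and 3.4% were called higher. The order within the pair depends on the fit and was not tested. With the library number as a block Rsad2 had 4.59 and Cmpk2 4.08 in G3-YSD, and 4.61 and 4.07 in HSV. Both comparisons share the mock libraries and are not independent. They also hold the wide distance of the G3-YSD and HSV libraries from all others given above. A stimulus effect cannot be told apart from it. Of the markers of other cell types, 0 of 8 tested were called and their median log2 fold change was 1.00 in G3-YSD and 1.18 in HSV. Summed over the list, mock had 95.2 and 97.2 CPM, G3-YSD 75.1 and 98.0 CPM and HSV 83.6 and 103 CPM (library 1 first), and their part in the result was not tested.

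The G3-YSD and HSV values rest on library 1. Without G3-YSD 1 the log2 fold change against mock was -0.21 for Cmpk2 and -2.35 for Rsad2, and without HSV 1 it was -0.19 and -2.55. Cmpk2 was higher than both mock libraries in 1 of 2 libraries of each label, and so was Rsad2. Without mock 1 the values for G3-YSD were 3.36 for Cmpk2 and 1.23 for Rsad2, and without mock 2 they were 5.84 and 9.00. G3-YSD 1 and HSV 1 exceeded mock 1 by 114-fold and 113-fold for Cmpk2 and by 1013-fold and 1026-fold for Rsad2. Against mock 2, the libraries G3-YSD 2 and HSV 2 had 0.51 and 0.516 times the Cmpk2 level and 0.0994 and 0.0862 times the Rsad2 level.

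**Figure D4:**
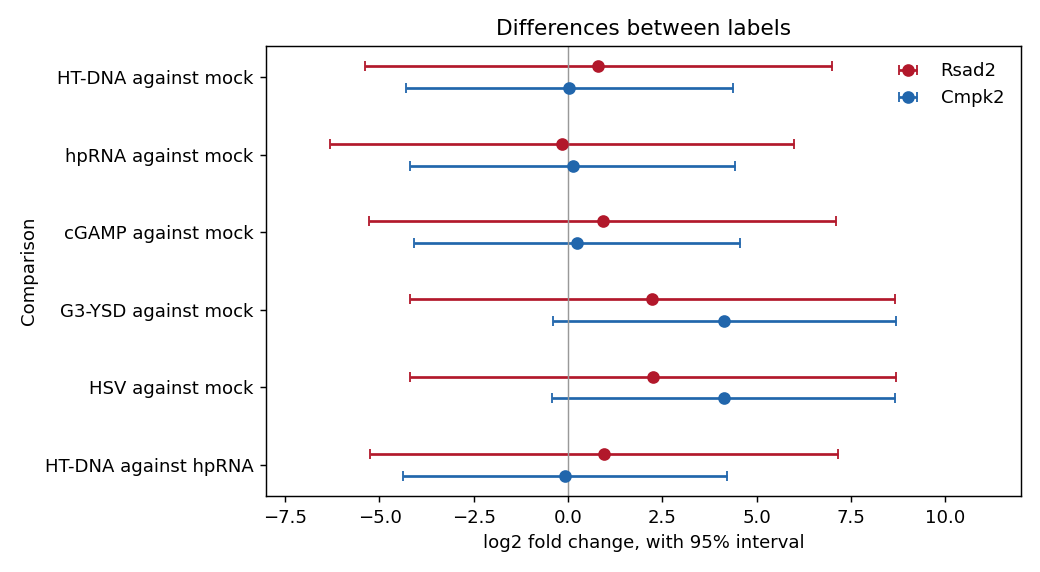
log2 fold changes of Rsad2 (red) and Cmpk2 (blue) in 6 comparisons, from the edgeR fit of all 12 libraries. Bars are 95% intervals and the grey line marks no difference. All 12 intervals include 0, and the largest estimates are those of Cmpk2 in G3-YSD and HSV against mock, 4.15 and 4.13.

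Genes that ran in parallel with each member were ranked by the SD over the 12 libraries of the log2 ratio of their level to that of the member, among 10479 genes with a mean of at least 5 CPM. This is a description, as the libraries share labels and depth. The genes steadiest against Rsad2 were Ifit1 (SD 0.30), Ifit3b (0.36), Ifit3 (0.36), Cxcl10 (0.44), Gbp10 (0.52), Mx2 (0.52), Oasl2 (0.66) and Oasl1 (0.68). These encode interferon-induced RNA-binding proteins, a chemokine, GTPases and oligoadenylate synthetase-like proteins. The level of Ifit1 stayed between 0.485 and 0.889 times that of Rsad2 while their highest levels were 1805 and 3500 CPM. The median gene had an SD of 3.41 against Rsad2. Cmpk2, with an SD of 2.10, came only at rank 129 in this order. Reads of Ifit3 and Ifit3b, and of Gbp10 and related family members, may be shared, since these genes have near-identical copies.

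The filter bears on the same ranking for Cmpk2, whose own level is low. Of its 8 steadiest genes, 7 (all but Sp140) had a median under 5 CPM and entered the ranking only through their levels in G3-YSD 1 and HSV 1. Genes that are as low as Cmpk2 without being high in those libraries were not ranked, so the order is given as a description with that limit. Among Rsad2's 8 genes this holds for Gbp10. The steadiest against Cmpk2 were C130026I21Rik (SD 0.39), Sp140 (0.40), Gas7 (0.42), Cyp26a1 (0.50), Itih2 (0.51), Acod1 (0.51), Oas1c (0.58) and A530032D15Rik (0.59), against a median gene at 2.27. Sp140 encodes a nuclear body protein, Cyp26a1 degrades retinoic acid, Acod1 makes itaconate and Oas1c is an oligoadenylate synthetase family member. Rsad2 came at rank 1999 of the same order. Sp140 was at 2.90 and 21.7 CPM in the mock libraries and at 317 and 7.46 CPM in the G3-YSD libraries, library 1 first. Gas7 was at 1.31 and 2.44 CPM in mock and at 97.0 and 1.77 CPM in G3-YSD. These values follow from how the genes were chosen. C130026I21Rik, A530032D15Rik and Sp140 lie close together on chromosome 1, between 84992690 and 85645037, in a family with near-identical copies, so their reads may be shared.

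**Figure D5:**
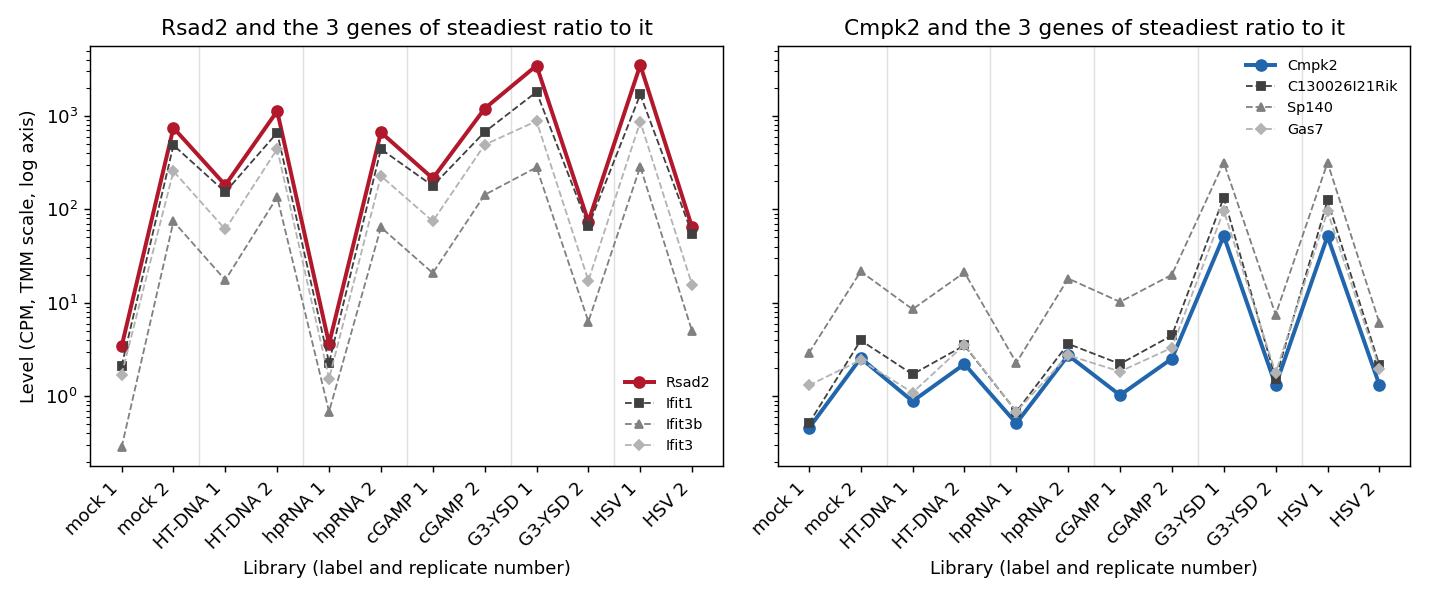
Level in CPM (TMM scale, log axis) of Rsad2 (left) and Cmpk2 (right) in the 12 libraries, each with the 3 genes of steadiest ratio to it. Lines only join the points of a gene. Ifit1, Ifit3b and Ifit3 follow Rsad2 at every library, and C130026I21Rik, Sp140 and Gas7 follow Cmpk2, as the choice by steady ratio and a mean of at least 5 CPM makes them do.

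The promoter windows of these companions were searched in the same way. Of 6 Rsad2 companions with a window, 5 held AANNGAAA (Cxcl10, Ifit1, Ifit3, Ifit3b and Oasl1), as Rsad2 does. TATAA was in 3 of them (Ifit3, Ifit3b and Oasl2) and TTCNNNGAA in 0. Of all windows 21.3% hold AANNGAAA, 22.8% TATAA and 7.02% TTCNNNGAA. Of 7 Cmpk2 companions with a window, 3 held AANNGAAA (Acod1, Itih2 and Oas1c), 1 TATAA (Acod1) and 0 TTCNNNGAA. Most Cmpk2 companions entered the ranking through 2 libraries. All companions were chosen from these data, and Ifit3 and Ifit3b are near-identical copies. Nothing that sets the 2 members apart is therefore read from these counts.

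Genes that act upstream of the pair were taken from a list of 20, all of them tested. Counts of Ifnb1, the interferon beta gene, were highest in G3-YSD 1 (450) and HSV 1 (390). HT-DNA 2 followed with 183, cGAMP 2 with 142, G3-YSD 2 with 56, HSV 2 with 50 and mock 2 with 30. HT-DNA 1, hpRNA 2 and cGAMP 1 had 13, 11 and 7, and mock 1 and hpRNA 1 had 0. Ifih1, the sensor MDA5, ranged from 1.36 CPM in mock 1 to 416 CPM in G3-YSD 1. Irf7, an interferon-induced transcription factor that amplifies the response, ranged from 2.31 CPM in HSV 2 to 247.5 CPM in HSV 1, with 84.6 CPM in mock 2. The constitutive factor Irf3 stayed between 27.1 and 48.6 CPM. Of the 20 genes, 0 were called higher in any comparison, beside 1.79% of all genes in G3-YSD and 1.73% in HSV. Ticam1, the adaptor of the receptor TLR3, was called lower in G3-YSD at -1.53 (edgeR adjusted p = 0.0473) and in HSV at -1.61 (adjusted p = 0.0402), in 2 of 2 libraries each. This 1 call of 20 is near the share of all genes called lower, 3.37% and 3.47%. The median log2 fold change of the list was 0.57 in G3-YSD and 0.55 in HSV against mock, beside 0.11 and 0.10 for all genes. In HT-DNA it was 0.40 and in cGAMP 0.41, beside 0.00 in both, and in hpRNA -0.02.

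In G3-YSD 2 and HSV 2, Rsad2 and the transcription factor genes Irf7, Stat2 and Irf9 were not raised alike relative to mock 1. Rsad2 at 74.0 and 64.2 CPM lay well above the 3.41 CPM of mock 1, and Ifnb1 had 56 and 50 counts against 0. Irf7 in the same libraries stood at 3.08 and 2.31 CPM, beside 3.07 CPM in mock 1. Stat2 had 25.6 and 26.3 CPM beside 25.6 CPM, and Irf9 had 14.9 and 13.2 CPM beside 12.8 CPM. In HT-DNA 1, by contrast, Irf7 was at 30.7 CPM and Irf9 at 78.5 CPM with Rsad2 at 182 CPM. Cmpk2 was at 1.31 and 1.32 CPM in G3-YSD 2 and HSV 2, against 0.885 CPM in HT-DNA 1, within overlapping counting intervals. Mock 2 held more than G3-YSD 2 and HSV 2 of Rsad2 (744 CPM), Irf7 (84.6 CPM), Stat2 (228 CPM) and Irf9 (106 CPM). Ifnb1, with 30 counts in mock 2, was lower there than in G3-YSD 2 and HSV 2. The unlike rise of these genes is thus seen against mock 1 and not against mock 2. These are single libraries, and no test was made between them.

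Other genes tied to the enzymes were taken from 3 lists. Among 15 tested genes of cytosolic iron-sulfur cluster assembly and reported viperin partners, Fdps, the farnesyl diphosphate synthase that viperin is reported to bind, was called lower in G3-YSD and HSV, at -1.60 in both (edgeR adjusted p = 0.0162 and adjusted p = 0.0168). Its level was 2.46 to 3.25 CPM in G3-YSD and 2.39 to 3.31 CPM in HSV, below the 8.66 to 8.75 CPM of mock, and reads may be shared with its processed copies. Ciao1, which takes part in inserting the cluster into viperin, stayed between 17.5 and 24.6 CPM. Hadhb, a subunit of the mitochondrial trifunctional protein reported to bind viperin, ranged from 84.9 to 171 CPM. Of 7 other radical SAM enzymes, Mocs1, of molybdenum cofactor synthesis, was called lower in the same comparisons, at -0.73 and -0.61 (adjusted p = 0.0202 and adjusted p = 0.0288 by edgeR). Rsad1 ranged from 10.8 to 29.8 CPM and Cdkal1, a tRNA-modifying enzyme, from 9.39 to 43.7 CPM. Of 32 tested genes of nucleotide kinases and pyrimidine supply, 0 were called in any comparison. Samhd1, the interferon-inducible dNTP hydrolase, ranged from 63.2 to 217 CPM, highest in HSV 1 and G3-YSD 1 (207 CPM). Ak4 ranged from 16.9 to 87.6 CPM. The calls, 1 of 15, 1 of 7 and 0 of 32, stand beside 3.37% and 3.47% of all genes called lower in G3-YSD and HSV, and with lists of this size nothing particular to them is read from these counts. In the median, these 3 lists moved by -0.14 to 0.05 on the log2 scale over all 6 comparisons, beside medians of 0.00 to 0.11 for all genes. Ticam1, Fdps and Mocs1 were called only in the labels whose libraries stood apart from all others, and the source of that distance was not tested. Leaving out mock 1 or mock 2 leaves 1 mock library, so it cannot show whether these 3 calls rest on either of them. In mock 1 and mock 2, Ticam1 was at 40.6 and 48.2 CPM, Fdps at 8.75 and 8.66 CPM and Mocs1 at 37.2 and 38.7 CPM.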

How the data were processed

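The authors deposited raw read counts for Ensembl gene identifiers, with a separate table for each of the 12 libraries. Per the submitters' processing notes, HISAT2, HTSeq and the build mm10 were used. The tool versions, gene models and strandedness of counting were not given in the sources used here. Symbols and positions are from GENCODE M21, which matched 54495 of 54532 genes, and promoter sequences are from RefSeq (GRCm38.p6), which held 1 window for each member. Counts were analysed with R 4.3.3 and edgeR 4.0.16 (default low-count filter, TMM, quasi-likelihood test, 1 term per label over 12 libraries, 6 residual degrees of freedom, threshold 0.05) and again with DESeq2 1.42.0. The edgeR script was first run on simulated counts, as a check of the code only. Ratios and permutation tests used Python 3.11.15. Log ratios in the ranking of parallel genes used a prior count of 0.5. The Rsad2 to Cmpk2 ratio was taken from the counts with nothing added, except in the alternative that says so. Poisson and binomial intervals cover counting error only.

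The members and gene lists were chosen with earlier results of these data known. Named are the members, genes within 500 kb that passed the filter, the 8 genes of steadiest ratio to each member, and of each list the 2 genes of widest range and up to 3 called genes per comparison. Ifnb1, Irf3, Irf7, Irf9, Stat2, Ciao1, Fdps, Cmpk1, Dtymk and Samhd1 are always given. Some genes of these lists are not reported here. Rnf144a, 2 pseudogenes and the markers were named after their values were seen. Alternatives were other scalings, filters, tools, blocks and left-out libraries.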

Additional observations from a re-analysis of the deposited data

How the results depend on the processing

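Neither member changed its call or direction with RLE or upper quartile scaling, or with the 4 libraries compared alone. DESeq2 called Cmpk2 in G3-YSD (4.16) and HSV (4.15) against mock, and edgeR without the low-count filter did too (4.09 and 4.09). The cause was not tested. Leaving out 1 library moved the log2 fold change against mock as follows. In HT-DNA it was -1.05 to 7.60 for Rsad2 and -0.76 to 1.76 for Cmpk2, for cGAMP -0.81 to 7.70 and -0.55 to 1.95, and for hpRNA -6.68 to 6.63 and -1.54 to 1.83. For G3-YSD the ranges were -2.35 to 9.00 and -0.21 to 5.84. For HSV they were -2.55 to 9.03 and -0.19 to 5.85. HT-DNA against hpRNA gave -0.89 to 7.50 and -0.88 to 1.58. The p of the ratio across labels stayed above the threshold, at 0.234 to 0.801 with 1 library left out, 0.597 with 0.5 counts added and 0.467 without G3-YSD and HSV.

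Genes called in G3-YSD against mock numbered 869, but 2106 by DESeq2, 1894 without the filter, 0 in the 4 libraries alone and 0 to 652 with 1 library left out (77 without G3-YSD 2). For HSV they were 876, 2138, 1892, 0 and 0 to 682 (130 without HSV 2). For G3-YSD, 302 genes were called higher and 567 lower, against 364 and 314 with upper quartile scaling. For HSV it was 291 and 585, against 347 and 304. DESeq2 called 1 gene in HT-DNA and 1 in hpRNA against mock.

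Same-numbered deviations correlated at 0.365 to 0.654 among mock, HT-DNA, hpRNA and cGAMP and at 0.939 between G3-YSD and HSV, but at -0.357 to -0.311 between these sets. The numbers therefore do not pair all libraries. With the replicate block in 12 libraries no member was called (Rsad2 4.59 in G3-YSD and 4.61 in HSV, Cmpk2 4.08 and 4.07). An exact permutation of labels within numbers gave p = 0.472 for the ratio. The replicate block in the 8 libraries without G3-YSD and HSV called 14 genes in HT-DNA, 23 in cGAMP against mock and 25 in HT-DNA against hpRNA, neither member among them, and turned Cmpk2 in the last to 0.034. In that fit Rsad2 had 2.61 (SE 1.35) in HT-DNA and 2.82 (SE 1.37) in cGAMP against mock and 2.74 (SE 1.35) in HT-DNA against hpRNA, with edgeR adjusted p = 0.619, adjusted p = 0.469 and adjusted p = 0.619. Cmpk2 in the same fit and order had 0.15 (SE 0.37), 0.35 (SE 0.37) and 0.034 (SE 0.36). A replicate block crossed for G3-YSD and HSV, chosen after seeing the data, called 1878 and 1935 genes there. Depth limits Cmpk2, with 8 to 49 counts in 10 libraries.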
